A study of Homo sapiens with 6 samples.

Results

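The genes described here are 4 FXYD regulators of the sodium pump (FXYD2, FXYD3, FXYD4 and FXYD5) and 3 of its beta subunits (ATP1B1, ATP1B2 and ATP1B3). They were chosen by gene name, 7 of the 35856 genes in the deposited table, after the difference between the same groups of libraries was already known. The changes of these 7 genes between the groups are therefore given as a description, with a standard error and no test. The libraries came from HCCLM3, a human hepatocellular carcinoma cell line whose cell type is labelled hepatoma. The cells had been transfected either with a vector carrying LINC00862, a long non-coding RNA, or with an empty vector, whose genotype label is NC (called Empty here). Each group held 3 libraries, the parental line was shared, and the labels do not state the time after transfection, whether the sequenced cells were selected, or whether the 3 libraries came from separate cultures. Total counts per library lay between 58241123 and 68229070.

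The sodium pump, Na,K-ATPase, moves sodium out of the cell and potassium in at the cost of ATP. Its alpha subunit carries out the transport, its glycosylated beta subunit is needed for folding, for reaching the plasma membrane and for adhesion between neighbouring cells, and a small FXYD protein with a single membrane span can bind to the complex and tune its affinity for the ions. In transporting epithelia such as kidney tubule and colon the pump sits in the basolateral membrane and drives the uptake of salt, glucose and bile acids.

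FXYD proteins are named after a motif of phenylalanine, any residue, tyrosine and aspartate that stands just before the membrane span. The coding sequence around this motif is printed for the 4 FXYD genes because it is the part that defines the family. Each run holds 90 bases of the spliced coding sequence in GENCODE 29 (GRCh38), 5′ to 3′ on the gene's own strand, and the capitals mark the 4 codons of the motif. The genomic ends of the runs, introns included, are chr11:117822410-117822697 on the minus strand for FXYD2, chr19:35121227-35122835 on the plus strand for FXYD3, chr10:43374621-43375569 on the plus strand for FXYD4 and chr19:35166153-35166321 on the plus strand for FXYD5.
FXYD2: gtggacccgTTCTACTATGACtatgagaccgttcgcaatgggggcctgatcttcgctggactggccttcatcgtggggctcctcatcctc
FXYD3: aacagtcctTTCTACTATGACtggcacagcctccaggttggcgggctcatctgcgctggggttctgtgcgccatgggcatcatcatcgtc
FXYD4: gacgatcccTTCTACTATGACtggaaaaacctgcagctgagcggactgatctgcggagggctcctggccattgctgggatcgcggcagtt
FXYD5: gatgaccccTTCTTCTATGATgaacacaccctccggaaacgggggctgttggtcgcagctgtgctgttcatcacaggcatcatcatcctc

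The 4 motif codons were identical in FXYD2, FXYD3 and FXYD4 and differed in FXYD5. Over the 90 bases, pairs of genes were identical at 54.4% to 65.6% of positions. The coding sequences used had 66 codons for FXYD2, 87 for FXYD3, 89 for FXYD4 and 178 for FXYD5, with the motif starting at codon 19, 30, 30 and 135 in that order. FXYD5 thus carries a much longer stretch before the motif than the other three. The 3 beta subunits were longer, at 303 codons for ATP1B1, 290 for ATP1B2 and 279 for ATP1B3.

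LINC00862 itself had counts of 11, 21 and 6 in Empty, against 145, 121 and 76 in LINC00862, higher in all 3, with a log2 fold change of 3.22 (SE 0.53). Between the groups 13289 of 20741 genes tested passed a false discovery rate of 0.05 in edgeR's quasi-likelihood test, so most of the genes tested were called. The libraries fell by group, with Spearman correlations across genes of 0.896 to 0.909 within a group and 0.754 to 0.767 between groups. The labelled cell type was checked on 8 hepatocyte and hepatoma markers. Their summed FPKM (a count of fragments scaled by transcript length and by the library's mapped total) was 3.05 to 3.60 in the Empty libraries, where ALB and APOA1 were listed at 0 in 2 of 3 libraries and TTR in all 3, while SERPINA1 had 1.11, 1.22 and 1.53 FPKM and FGB 1.88, 1.69 and 1.68. In the LINC00862 libraries the sum was 538 to 618, most of it FGB. Of 7 tested, 5 were called higher (FGB, TF, ALB, TTR and HNF4A) and 2 lower (AFP and SERPINA1). Over all genes tested 34.4% were called higher and 29.7% lower. ALB, TTR and HNF4A passed the filter on low counts through the LINC00862 libraries alone, and AFP through the Empty libraries alone. The calls of these genes are therefore no evidence. TF went from 0.0369 to 15.5 FPKM. AFP was listed at 0 in all 3 LINC00862 libraries, and SERPINA1 had a log2 fold change of -3.55 (SE 0.36). The epithelial markers summed to 194 to 287 FPKM in Empty and 437 to 500.2 in LINC00862, with 4 of 5 called higher. KRT8 and KRT18 made up most of the Empty sum, with means of 84.5 and 153 FPKM there and 62.2 and 219 in LINC00862. KRT8 was not called. EPCAM went from 0.547 to 160 FPKM, CDH1 from 0.261 to 22.3 and KRT19 from 0.0315 to 3.37. KRT19 passed the filter through the LINC00862 libraries alone, so its call is no evidence.

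Of the 7 genes, 5 passed the filter on low counts, 4 of these were called, and the same 4 had FPKM values that did not overlap between the groups. Over all genes tested 64.1% were called, 34.4% higher and 29.7% lower in the LINC00862 libraries, and 71.1% did not overlap. As the genes were picked with this contrast in view, nothing is read from their count. FXYD4, with 0 counts in Empty replicate 3, would not have passed the filter on the Empty libraries, so its call is no evidence. The median log2 fold change was 3.45 over the 5 genes and 0.11 over all genes tested. All libraries are from bulk RNA, in which fewer cells expressing a gene and less of its RNA per cell cannot be told apart.

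**Figure D1:**
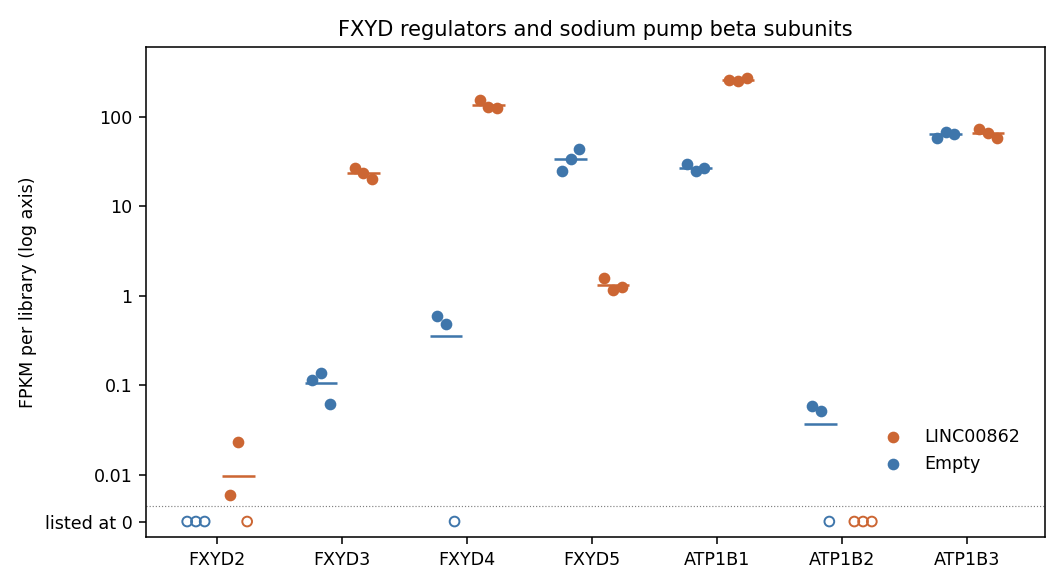
FPKM of the 7 genes in each library, on a log axis. Blue points are the 3 Empty libraries, orange points the 3 LINC00862 libraries, short lines are group means, and open circles on the lowest line are libraries in which the gene was listed at 0. FXYD3, FXYD4 and ATP1B1 stood higher and FXYD5 lower in the LINC00862 libraries, the ATP1B3 points overlapped, and FXYD2 and ATP1B2 stayed near 0.

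Among the beta subunits, ATP1B1 was the one that differed strongly. ATP1B1 encodes the beta 1 subunit, the most widely expressed partner of the alpha subunit and a homophilic adhesion molecule of epithelia. It lies at chr1:169105697-169132722 on the plus strand (hg38). Its FPKM was 29.9, 24.7 and 26.6 in Empty, against 261, 253 and 271 in LINC00862. Every LINC00862 library was far above every Empty library, and the spread within either group was small. The group means were 27.1 ± 2.63 and 262 ± 9.14 FPKM (SD, n = 3), a ratio of 9.67, and the fitted log2 fold change was 3.45 (SE 0.16). By size of change it ranked 2819 among the 10975 genes with a positive value. Its 3′ end overlaps the end of NME7, a gene of the opposite strand, by 192 bases. NME7 moved the other way, from 5.02 to 0.603 FPKM (log2 fold change -2.89, SE 0.23). Whether the counts were made with regard to strand is not given in the sources used here, so reads in those 192 bases cannot be assigned to one gene.

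ATP1B3 encodes the beta 3 subunit and lies at chr3:141876124-141926514 on the plus strand. Its FPKM was 58.8, 68.2 and 65.0 in Empty, against 72.5, 66.0 and 57.6 in LINC00862. The 2 groups overlapped, and both the highest and the lowest value belonged to LINC00862 libraries. The means were 64.0 ± 4.75 and 65.4 ± 7.44 FPKM (SD, n = 3), and the fitted log2 fold change of 0.20 (SE 0.15) was not called. Scaling the libraries by their upper quartile gave 0.40, which was called there. That scaling also moved the median of all genes from 0.11 to 0.32. The short antisense gene ATP1B3-AS1, which lies wholly inside ATP1B3, had no more than 13 counts summed over either group.

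ATP1B2, the beta 2 subunit known from brain as an adhesion molecule of glia, lies at chr17:7646627-7657770 on the plus strand. It had counts of 14, 12 and 0 in Empty and 0 in all 3 LINC00862 libraries, which is 0.0581, 0.0522 and 0 FPKM against 0. One Empty library was at 0 as well, so the groups met at that value, and the gene did not pass the filter. Set against a floor of 3 counts over the LINC00862 group, it was at least 9.10-fold lower there. This bound covers the counting error of the group at 0 only, not that of the Empty counts.

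The make-up of the beta subunits therefore differed between the groups. ATP1B1 made up 33.7%, 26.6% and 29.01% of the summed beta FPKM in Empty, against 78.3%, 79.3% and 82.5% in LINC00862. ATP1B3 made up most of the rest, 70.2% ± 3.62 in Empty and 19.98% ± 2.20 in LINC00862 (SD, n = 3). These shares are ratios within a library, so no scaling between libraries enters them. The ratio of ATP1B1 to ATP1B3 went from 0.427 ± 0.0746 to 4.05 ± 0.585 (SD, n = 3), and as a ratio of FPKM it depends on the transcript length assigned to each gene. The summed beta FPKM was 91.1 ± 2.11 in Empty and 327 ± 7.20 in LINC00862, and ATP1B1 accounted for nearly all of the difference.

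FXYD3 and FXYD4 were close to absent from the Empty libraries and well expressed in the LINC00862 libraries. FXYD3, also called Mat-8, is a pump regulator of stomach, colon and many epithelial tumours, and lies at chr19:35115879-35124324 on the plus strand. Its FPKM was 0.115, 0.139 and 0.0624 in Empty, against 26.9, 23.6 and 20.2 in LINC00862. The groups were separated by a wide gap, and no library stood apart from its group. The means were 0.105 ± 0.0392 and 23.6 ± 3.36 FPKM (SD, n = 3), a ratio of 224, with a fitted log2 fold change of 7.88 (SE 0.27), rank 846 of 10975.

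FXYD4, known as CHIF, the corticosteroid-induced channel-inducing factor of kidney collecting duct and distal colon, raises the sodium affinity of the pump. It lies at chr10:43371636-43376335 on the plus strand. In counts it had 33, 27 and 0 in Empty, against 9733, 7045 and 7035 in LINC00862. In FPKM these were 0.589, 0.483 and 0 against 153, 128 and 126, so 1 Empty library held no read and the LINC00862 libraries were alike. The means were 0.357 ± 0.314 and 136 ± 15.0 FPKM (SD, n = 3). The fitted log2 fold change was 8.72 (SE 0.66), rank 459 of 10975, and its larger error goes with the 0 in Empty replicate 3. Without that library the fitted value was 8.16. FXYD4 thus had the highest FPKM of any FXYD gene in the LINC00862 libraries, above FXYD3 in each one.

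FXYD5, also called dysadherin, is a regulator with a long extracellular stretch that was described as a cancer-associated membrane glycoprotein which lowers E-cadherin at the cell surface. It lies at chr19:35154730-35169880 on the plus strand. Its FPKM was 24.7, 33.8 and 44.0 in Empty, against 1.58, 1.16 and 1.26 in LINC00862. All 3 LINC00862 libraries were far below the lowest Empty library, and the Empty libraries spread over a wider range. The means were 34.2 ± 9.66 and 1.34 ± 0.220 FPKM (SD, n = 3), which is 25.6-fold lower, and the fitted log2 fold change was -4.50 (SE 0.29), rank 664 of the 9766 genes with a negative value. FXYD5 was the only one of the 5 genes tested whose fitted change was negative.

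FXYD2, the gamma subunit of the kidney pump, was barely detected. It lies at chr11:117800844-117828698 on the minus strand, and had 0 counts in all 3 Empty libraries, compared with 3, 9 and 0 in LINC00862. The highest value was 0.0230 FPKM, one LINC00862 library was at 0, and the gene did not pass the filter. Over the group, against a floor of 3 counts in Empty, it was at least 3.81-fold higher. GENCODE 29 also annotates a readthrough gene, FXYD6-FXYD2, which was not analysed here.

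The summed FPKM of all 7 FXYD genes with a row was 34.7 ± 9.30 in Empty and 161 ± 18.2 in LINC00862 (SD, n = 3). FXYD5 made up 96.9%, 98.1% and 99.9% of it in Empty, against 0.873%, 0.759% and 0.855% in LINC00862. FXYD4 made up 84.4% ± 0.894 and FXYD3 14.6% ± 0.893 in the LINC00862 libraries. The ordering of the family was thus FXYD5 first and all others far behind in Empty, where FXYD3 and FXYD4 overlapped, and FXYD4, then FXYD3, then FXYD5 in LINC00862, where neighbours in that order did not overlap.

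FXYD3 and FXYD5 lie on the same strand of chromosome 19, with 30.4 kb between the end of the first and the start of the second and 54 kb from end to end. FXYD1 and FXYD7 lie between them, had no more than 13 counts summed over either group, and were not tested. Within 100 kb of FXYD3, 6 of the genes reported here were tested in edgeR's fit. All but FXYD5 were called higher in LINC00862, against 34.4% of all genes tested, but most of these calls rest on the filter, so nothing is read from this count. The higher genes include HPN, a serine protease of the hepatocyte surface, which went from 0.0157 to 11.4 FPKM. Its log2 fold change was 9.45 (SE 0.45), higher in 3 of 3 libraries. HPN and HPN-AS1 had 12 Empty counts each and passed the filter through the LINC00862 libraries alone, so their calls are no evidence. The same holds for the clone-named gene AC020907 at chr19:35090930-35107320, with 4 Empty counts. Another of that name, at chr19:35014961-35025335, had 19, 5 and 21 counts in Empty and 32, 44 and 54 in LINC00862. It would not have passed on the Empty libraries, so its call is no evidence either. LSR, a lipoprotein receptor of tricellular junctions on the far side of FXYD5, rose from 12.2 to 22.4 FPKM, a log2 fold change of 1.04 (SE 0.17, edgeR adjusted p = 0.000690), again with no overlap. FXYD4, on another chromosome, had 3 tested genes within 100 kb and none was called.

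For promoters, 5 of the 7 genes had a sequence in the RefSeq table (GRCh38.p14), which covers 250 bases before to 50 after the start that RefSeq gives the gene. For FXYD3 and ATP1B1 this window, at chr19:35117750-35118049 and chr1:169106440-169106739, lay inside the gene span given above, and the same holds for ATP1B3 at chr3:141876393-141876692. Motifs were searched on both strands, as plain letters. None of the 5 promoters held the E box CACCTG, the grainyhead motif AACCGGTT or the TATA box TATAAA, which occurred in 20.6%, 0.134% and 11.5% of 35116 promoters. These letters are absent from these windows, and nothing more follows. The number of CpG dinucleotides was 45 for ATP1B3 and 41 for ATP1B1, 19 for FXYD5, and 9 for both FXYD3 and ATP1B2. The promoter of ATP1B1 held more CpG than 93.3% of all promoters.

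Other genes of the pathway were tested in edgeR's quasi-likelihood fit, with p adjusted by the Benjamini-Hochberg method over all genes. The lists were chosen with earlier results of these data known, so their counts, median and p-values are a description. Of 50 reported here, 31 were tested, 17 rose, 8 fell and 6 were not called, with a median log2 fold change of 0.97 against 0.11 for all genes tested. The shares over all genes tested were 64.1% called, 34.4% higher and 29.7% lower, and nothing is read from the counts of the lists. Among the remaining FXYD genes only FXYD6 was tested. FXYD6, a pump regulator of brain and inner ear, had 0 counts in every Empty library and 62, 117 and 80 in the LINC00862 libraries. This was at least 82.3-fold higher over the group. FXYD6 passed the filter through the LINC00862 libraries alone, so its call is no evidence. Its level stayed low, at 0.161, 0.351 and 0.237 FPKM. Of the related pumps, the beta subunit of the gastric proton pump and the NKAIN interactors, 1 of 6 with a row was tested and it was not called.

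Sodium entry genes carry the ion that the pump removes. Of 10 tested, 6 rose, 2 fell and 2 were not called, where 34.4% of all genes tested rose and 29.7% fell. The phosphate cotransporter SLC34A2 went from 0.0120 to 4.60 FPKM, a log2 fold change of 8.49 (SE 0.56). SLC34A2 and SLC9A2 passed the filter through the LINC00862 libraries alone, so their calls are no evidence. The bicarbonate cotransporter SLC4A4 rose by 3.47 (SE 0.29) and the alpha subunit of the epithelial sodium channel, SCNN1A, by 1.47 (SE 0.16). Among those that fell were the sodium-calcium exchanger SLC8A1 at -1.47 (SE 0.30) and the channel subunit SCNN1D at -0.91 (SE 0.27). The 2 groups did not overlap for these 5 genes, whereas they did for SLC9A3 and SLC12A2, both called higher. The call of SCNN1D was lost without Empty replicate 2, where the value was -0.81, and without LINC00862 replicate 1 or 2, at -0.84 and -0.78, and with upper quartile scaling at -0.70. SLC9A3 lost its call when Empty replicate 2 or 3 or LINC00862 replicate 1 or 2 was left out, at 0.58 to 0.80, with library size only at 0.61 and in both limma fits at 0.31 and 0.50.

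Potassium exit genes return the ion that the pump brings in. Of 6 tested, 5 rose and 1 fell, where 34.4% of all genes tested rose and 29.7% fell. The 2-pore channel KCNK1 had 0.544, 1.14 and 0.848 FPKM in Empty and 22.98, 21.3 and 18.6 in LINC00862, a rise of 4.78 (SE 0.30, edgeR adjusted p = 1.48e-06). KCNK5, a channel of the same family found in kidney tubule, rose by 5.92 (SE 0.40). KCNK5, KCNE3 and KCNJ16 passed the filter through the LINC00862 libraries alone, so their calls are no evidence. The calcium-activated channel KCNN4 was the one that fell, at -0.80 (SE 0.24, edgeR adjusted p = 0.0163), a call lost without Empty replicate 2 at -0.64 and without LINC00862 replicate 2 at -0.75, and with upper quartile scaling at -0.59. The call of KCNJ16 was lost without LINC00862 replicate 2 or 3, at 3.46 and 3.70, and in DESeq2 at 3.70. All 22 of its Empty counts were in Empty replicate 3, and without that library the fitted value was 9.54 in place of 3.65.

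Corticosteroid receptors and kinases that control the pump were split. Of 10 tested, 4 rose, 4 fell and 2 were not called, where 34.4% of all genes tested rose and 29.7% fell. HSD11B2, the enzyme that protects the mineralocorticoid receptor from cortisol, had 0.129, 0.124 and 0.206 FPKM in Empty and 4.02, 3.54 and 3.99 in LINC00862, a rise of 4.79 (SE 0.30, edgeR adjusted p = 1.53e-06). SGK1, the aldosterone-induced kinase, had 5.76, 5.06 and 4.32 FPKM in Empty and 0.363, 0.355 and 0.456 in LINC00862, a log2 fold change of -3.47 (SE 0.20, edgeR adjusted p = 7.54e-07). Receptors moved in opposite directions as well, NR3C2 (mineralocorticoid) at 1.27 (SE 0.33) and NR3C1 (glucocorticoid) at -0.89 (SE 0.22), and the glucocorticoid target FKBP5 fell by 1.79 (SE 0.22) while TSC22D3, another, rose by 0.99 (SE 0.21). The values of NR3C2 overlapped between the groups.

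The last list held 3 regulators and partners known for single members of the group. PCBD1, a cofactor of transcription factors, was not called (0.51, SE 0.21), but was called without Empty replicate 3, at 0.71, in DESeq2 at 0.56 and with upper quartile scaling at 0.71. CDH1, E-cadherin, had 0.280, 0.268 and 0.235 FPKM in Empty and 23.7, 23.4 and 19.9 in LINC00862, a rise of 6.57 (SE 0.17, edgeR adjusted p = 2.27e-08). CCL2, a chemokine that FXYD5 is known to raise, fell by 1.97 (SE 0.29, edgeR adjusted p = 0.000279). These values are of RNA, not of protein at the cell surface, and any tie of either gene to FXYD5 was not tested.

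Markers of other cells were counted beside these values. Of 3 kidney tubule markers with a row only PAX8 was tested and it was not called, and their sum did not pass 0.132 FPKM in any library, while of 4 intestinal markers with a row only LGALS4 was tested and not called, and the sum did not pass 0.351 FPKM. AQP2 was listed at 0 in all 3 LINC00862 libraries, and CDX2 in all 3 Empty ones. Leukocyte markers summed to 3.03 to 3.67 FPKM in Empty and 9.08 to 15.0 in LINC00862. CD14 and CD68 were higher, and PTPRC, CD3E and MS4A1 were not called. For endothelial markers the sums were 1.20 to 1.79 and 4.47 to 5.92 FPKM, with CDH5 the 1 of 5 that was called. Fibroblast markers summed to 7.44 to 8.61 and 11.8 to 15.7 FPKM, with COL1A1 and LUM higher, PDGFRB lower, and COL1A2, COL3A1 and DCN not called. Their part in the results above was not tested.

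Across 13 other fits the direction of these 5 genes did not turn. The values ran from 3.23 to 3.67 for ATP1B1, from 4.47 to 8.11 for FXYD3, from 6.68 to 9.22 for FXYD4 and from -4.72 to -3.88 for FXYD5. As the genes were chosen on this contrast, these ranges describe how far the estimates move and are no test. The lowest values of FXYD3 and FXYD4 came from adding 1 to the FPKM, which shrinks changes of genes near 0. ATP1B3 ran from 0.03 to 0.40. TPM, which gave lower log2 ratios for the beta and FXYD totals, was not among these fits.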

How the data were processed

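The deposited table held, for each of 6 HCCLM3 libraries (3 LINC00862, 3 Empty), whole-number read counts per gene and FPKM values made by the authors. Libraries were poly(A)-selected with molecular identifiers. The submitters' processing notes name cutadapt 1.9, HISAT2 2.0.4, UMI-tools, StringTie 1.3.4d, DESeq2, edgeR and genome build hg38; which program made the counts, and with which strand setting, is not given in the sources used here. FPKM are not corrected for composition between libraries.

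Counts were fitted over all genes with edgeR 4.0.16 (R 4.3.3; filterByExpr, TMM, robust quasi-likelihood, false discovery rate 0.05). Alternatives used DESeq2 1.42.0, limma 3.58.1 on log2(FPKM + 0.1) and log2(FPKM + 1), upper quartile or library-size scaling, no filter, a replicate block and leaving out each library. Adjusted p-values measure the spread between these libraries, which may be technical. Fold bounds set a group at 0 to 3 counts over the group. They cover the counting error of that group only, and take the counts of the other group as observed. Totals were 58241123 to 68229070 counts.

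The 7 genes, the pathway and marker lists and the motifs were chosen with earlier results of these data known. Genes named were all 7 members, LINC00862, pathway genes among the larger changes of their list, highest in level or named for their role, some neighbours within 100000 bases, and for each well-expressed member the 3 genes nearest in pattern. Coding sequences came from GENCODE 29. The fits were tested on simulated data. Some genes of the lists and their results are not reported here.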

Additional observations from a re-analysis of the deposited data

How the results depend on the processing

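Of the 7 genes, 4 were called in most settings, a count from which nothing is read since they were chosen on this contrast. It was 5 with upper quartile scaling, where ATP1B3 was added at 0.40, and 5 without Empty replicate 3, the Empty library in which ATP1B2 is at 0. ATP1B2 then passed the filter through the other Empty libraries alone, so that call is no evidence. The number of genes called ranged from 12004 to 14272 when 1 library was left out, and was 10843 at the stricter rate. Among called genes 53.7% were higher in LINC00862, against 60.3% when scaled by the upper quartile, where the median of all genes moved from 0.11 to 0.32, and 48.5% when scaled by total count alone, where it moved to -0.05. Among the pathway genes' alternative values, 404 kept direction and call, 22 lost the call, 7 gained it and 1 turned direction. WNK1, not called, had -0.31, and ran from -0.485 to 0.0710 when 1 library was left out, above 0 without Empty replicate 1. The total beta FPKM had a log2 ratio of 1.84, which became 2.01 with TMM factors and 1.37 as TPM. The FXYD total went from 2.21 to 1.75 as TPM. The cause of these shifts was not tested.

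Libraries of the same number did not deviate together (correlations of -0.0489, -0.0254 and -0.00737), so the numbers do not pair them. With a replicate block 12140 genes were called against 13289, and 4 of the 7 genes and 25 of the pathway genes, with SLC9A3 lost at 0.72 and PCBD1 gained at 0.54. FXYD2 and ATP1B2 did not pass 14 counts in any library.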

Other observations

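The genes nearest in pattern to each member were found by the distance between centred log2(FPKM + 0.1) values over the 6 libraries, among 13685 genes with at least 1 FPKM in a group's mean. For FXYD3 the nearest was LCAL1 (distance 0.269, from 0.0912 to 23.1 FPKM), followed by PLA1A and ICA1. For FXYD4 it was the trefoil peptide gene TFF1 (1.60, from 0.656 to 215 FPKM), followed by DSCAM-AS1 and ESRP1, a splicing factor of epithelia. For FXYD5 it was PLPP4 (0.280), followed by RARRES2 and NNMT, and NNMT went from 49.6 to 1.87 FPKM. For ATP1B1 it was the phosphodiesterase PDE4A (0.191), followed by SOCS2 and ZNF320. For ATP1B3 it was ATP13A1 (0.0959), followed by ATP5PB, a subunit of mitochondrial ATP synthase, at 60.1 and 60.4 FPKM. The 6 libraries fall into 2 groups, so a gene with a like difference between the groups is near by construction.

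In every library a count of 4 was more frequent than a count of 3 or of 5. In Empty replicate 1, for example, 775 genes had a count of 3, 1353 a count of 4 and 422 a count of 5. Its part in the low counts of FXYD2 and ATP1B2 was not tested.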
